A study of Homo sapiens with 6 samples.

Results

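The genes of the DNA replication machinery described here are 46 genes whose proteins mark replication origins, load and start the replicative helicase, and copy DNA at the fork. They were listed by function, by a rule that uses no measured value, although earlier results of these data were known. All 46 of 46 were measured among 11960 genes with a probe set of their own on the array. Senescent WI-38 fibroblasts that overexpressed RASv12 (genotype given as RASv12 overexpression) were compared with growing WI-38 fibroblasts whose genotype is given as wild type, with 3 samples in each group and 1 array per sample. WI-38 is a normal diploid fibroblast strain from human fetal lung, and RASv12 is a constitutively active form of a RAS GTPase whose gene the labels do not name. All cells were kept at 3% oxygen, and the growth protocol names infection by retroviral transfer for the strain without saying whether control cells received an empty vector, so infection and RASv12 cannot be told apart if they did not. RASv12 samples are labelled as carrying Cy3 and control samples as carrying Cy5, although the probe sets are those of an Affymetrix human array that is read in a single colour, so if dyes did differ they cannot be told apart from the groups. Whether the 3 samples of a group were grown as separate cultures is not said, and p-values cover the spread of these samples alone, which could be technical.

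Replication is prepared in G1 phase, when the origin recognition complex, CDC6 and CDT1 place MCM helicase rings on DNA. This step is called licensing, and geminin (GMNN) blocks it later in the cycle. In S phase, the kinase pair CDC7 and DBF4 and the CDC45 and GINS proteins turn the rings into active helicases, primase and polymerase alpha lay down primers, polymerases epsilon and delta extend them, and replication factor C loads the sliding clamp PCNA. Many of these genes are transcribed around the G1 to S transition by E2F factors, which the retinoblastoma protein restrains, and senescent fibroblasts have left the cell cycle.

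Because many of these genes are known E2F targets and most of them were lower together, their promoter sequences were read first. RefSeq windows of 250 bases before to 50 bases after the annotated start (GRCh38.p14) were found for 40 of the 46 genes and not for MCM4, MCM5, GINS4, POLD3, RPA2 and RPA3. They were searched on both strands for 4 octamers of the type that E2F factors bind, TTTCCCGC, TTTGGCGC, TTTCGCGC and TTTGCCGC, where a match to 1 octamer can overlap a match to another. An octamer stood in 21 of the 40 genes (52.5%), against 6.07% of 9566 array genes with a window and 3.99% of all 27305 genes with a window. A gene was counted if any of its windows held an octamer. Counted by window, the share was 3.31% of all 35116 windows. Among genes called lower in RASv12 cells 18 of 27 held an octamer (66.7%), and among genes that did not pass the test 3 of 12 did (25%), namely ORC3, GINS3 and CLSPN. Of all 1515 array genes that were called lower and had a window, 8.98% held an octamer. The shorter motif CCAAT, searched on both strands, stood in 23 of the 40 genes (57.5%), against 44.2% of array genes. These shares are descriptions with no test, and a match is a stretch of letters, not a shown site. The motifs were chosen after values were seen. Since many of these genes are known E2F targets, a high octamer share was likely beforehand. By part, octamers stood in 3 of 3 licensing factors, 4 of 4 MCM genes with a window and 6 of 9 helicase activation genes, against 1 of 6 genes of the origin recognition complex. They stood in 2 of 4 genes of primase and polymerase alpha, 2 of 4 of polymerases delta and epsilon, 2 of 6 of the clamp and its loader, 1 of 3 of Okazaki fragment maturation and 0 of 1 for single-strand binding. In every part but the origin recognition complex (2 of 6) most genes were also called lower, and octamers were not tested against calls.

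The windows printed below were picked as examples. Other genes differ: RFC4 also fell but held no octamer, and ORC3 did not pass but held an octamer. MCM6, GINS2, GMNN, POLA1 and RFC3 fell in RASv12 cells and held an octamer. They belong to the helicase, its activation, licensing, the polymerases and the clamp loader. The last window is that of ORC4, which did not pass the test and held no octamer. Each window runs 5′ to 3′ along the gene's own strand, and capitals mark the octamers.
MCM6 (chr2:135876394-135876693, minus strand): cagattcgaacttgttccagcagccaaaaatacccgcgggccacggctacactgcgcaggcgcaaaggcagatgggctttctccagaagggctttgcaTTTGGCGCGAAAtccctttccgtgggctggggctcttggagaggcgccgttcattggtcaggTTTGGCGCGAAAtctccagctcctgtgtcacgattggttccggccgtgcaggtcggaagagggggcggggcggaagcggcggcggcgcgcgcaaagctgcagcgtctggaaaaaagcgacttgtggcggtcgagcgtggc
GINS2 (chr16:85688905-85689204, minus strand): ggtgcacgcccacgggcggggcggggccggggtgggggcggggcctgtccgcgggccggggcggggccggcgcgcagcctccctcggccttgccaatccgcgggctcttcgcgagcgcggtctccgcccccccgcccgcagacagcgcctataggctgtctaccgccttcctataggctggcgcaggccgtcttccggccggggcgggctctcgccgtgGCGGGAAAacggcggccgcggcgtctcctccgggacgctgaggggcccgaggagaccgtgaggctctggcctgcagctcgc
GMNN (chr6:24775163-24775462, plus strand): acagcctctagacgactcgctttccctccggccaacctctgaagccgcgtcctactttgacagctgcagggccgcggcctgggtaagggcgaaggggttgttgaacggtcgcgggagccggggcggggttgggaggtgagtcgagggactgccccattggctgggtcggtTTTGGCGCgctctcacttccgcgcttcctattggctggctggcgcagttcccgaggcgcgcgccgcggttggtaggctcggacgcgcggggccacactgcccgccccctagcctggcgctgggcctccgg
POLA1 (chrX:24693668-24693967, plus strand): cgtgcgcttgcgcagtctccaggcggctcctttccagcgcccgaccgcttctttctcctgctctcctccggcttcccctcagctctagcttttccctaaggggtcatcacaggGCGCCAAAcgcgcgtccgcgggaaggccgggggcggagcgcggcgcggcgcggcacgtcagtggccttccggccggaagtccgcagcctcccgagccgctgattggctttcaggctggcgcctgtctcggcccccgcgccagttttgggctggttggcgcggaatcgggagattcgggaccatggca
RFC3 (chr13:33817899-33818198, plus strand): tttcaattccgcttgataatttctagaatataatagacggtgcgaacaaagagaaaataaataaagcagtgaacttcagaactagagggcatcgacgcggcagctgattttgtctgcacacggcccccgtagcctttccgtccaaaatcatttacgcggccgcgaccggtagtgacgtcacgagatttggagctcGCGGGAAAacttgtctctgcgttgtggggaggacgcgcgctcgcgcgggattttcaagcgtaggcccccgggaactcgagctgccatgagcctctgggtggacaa
ORC4 (chr2:148020688-148020987, minus strand): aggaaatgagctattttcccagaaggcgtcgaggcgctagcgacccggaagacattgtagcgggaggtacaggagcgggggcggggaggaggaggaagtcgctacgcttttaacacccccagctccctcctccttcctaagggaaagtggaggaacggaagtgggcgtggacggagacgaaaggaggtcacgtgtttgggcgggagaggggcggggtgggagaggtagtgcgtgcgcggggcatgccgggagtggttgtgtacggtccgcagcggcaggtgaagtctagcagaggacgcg
The MCM6 window held 4 octamer matches, as 2 copies of TTTGGCGCGAAA in which a match on each strand overlaps the other. For GMNN, 1 of its 2 windows held an octamer and is the one shown. ORC4 also has 2 windows, neither with an octamer.

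**Figure D1:**
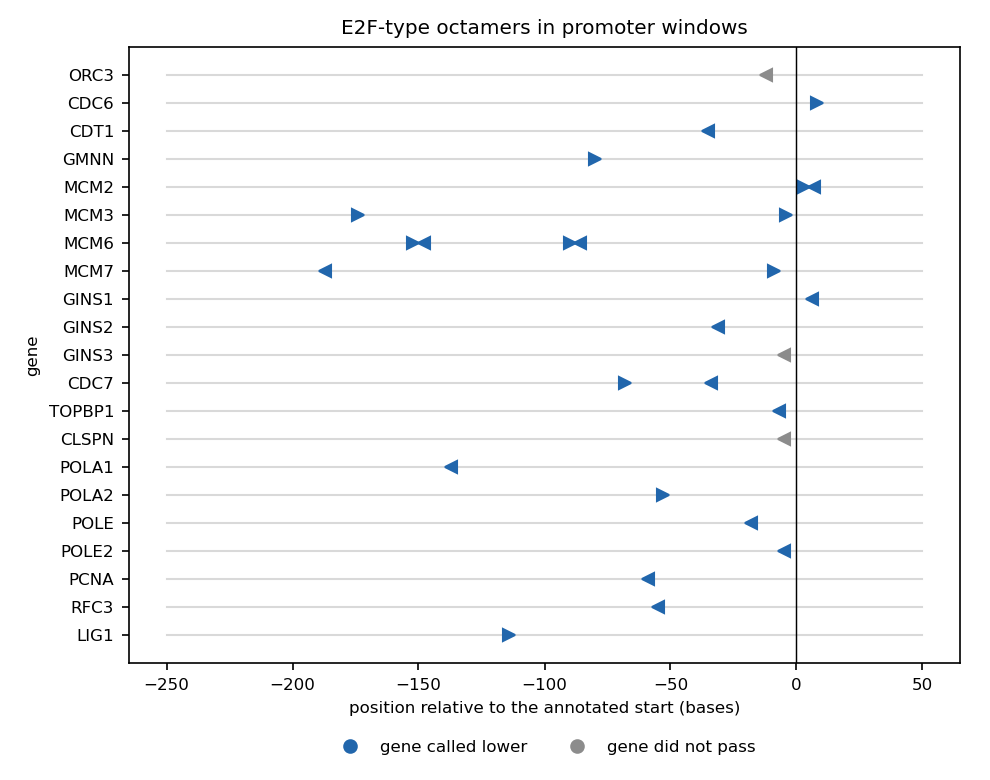
Positions of the E2F-type octamers in the promoter windows of the 21 replication genes that hold one, as distance in bases from the annotated start (vertical line). Triangles point along the strand of the match, blue genes were called lower in RASv12 cells and grey genes did not pass. MCM6 carries 4 matches in 2 overlapping pairs, and the 3 grey genes are ORC3, GINS3 and CLSPN.

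Values are intensities as deposited, on the linear scale of the MAS5 algorithm, and the arrays share a trimmed mean of 100. Differences are RASv12 minus control on the scale log2(intensity + 16) after quantile normalization, with standard errors (SE) from limma and p-values adjusted over all 11960 genes (Benjamini-Hochberg, threshold 0.05), and they understate the change of dim genes. An intensity of 27.98, the highest of 27 control probe sets for bacterial transcripts, was taken as the level of background. On the 6 arrays between 48.6% and 54.1% of probe sets lay above it. Arrays of a group correlated at 0.974 to 0.987 and arrays of different groups at 0.911 to 0.928, and no array stood apart from its group. Among 10 fibroblast markers all were above background on all 6 arrays, and 7 of them fell in RASv12 cells, while COL6A1, VIM and FAP did not pass. Their summed intensity was 9915 to 11380 in RASv12 samples and 20200 to 22180 in control samples. No epithelial (5 measured), endothelial (5) or blood cell marker (4) was above background on all 6 arrays. Summed intensity was 31.27 to 53.11 in RASv12 samples and 86.69 to 92.32 in control samples for the epithelial list, and 47.21 to 99.79 in RASv12 samples and 101.9 to 128.4 in control samples for the endothelial list. For the blood cell list it was 42.19 to 111.4 in RASv12 samples and 42.22 to 53.64 in control samples. Of these lists KRT19, an epithelial keratin, and TEK, an endothelial receptor, were called lower. KRT19 averaged 17.6 ± 8.26 in RASv12 cells and 52.7 ± 2.48 in control cells (adjusted p = 0.011), and TEK averaged 26.4 ± 9.27 in RASv12 cells and 78.6 ± 10.98 in control cells (adjusted p = 0.0023; SD, n = 3 each). HRAS, a RAS gene, averaged 853 ± 123 in RASv12 cells and 215 ± 23.02 in control cells, and the proliferation gene MKI67 averaged 58.5 ± 5.62 in RASv12 cells and 178 ± 16.9 in control cells (SD, n = 3 each). CDKN1A, which encodes the cell cycle inhibitor p21, averaged 1714 ± 93.3 in RASv12 cells and 860.4 ± 71.2 in control cells. CDKN2A, which encodes the inhibitor p16, averaged 288 ± 28.2 in RASv12 cells and 187 ± 13.04 in control cells, and the lamin gene LMNB1 averaged 9.15 ± 1.75 in RASv12 cells and 72.3 ± 6.64 in control cells. MKI67, 7 of the 10 fibroblast markers, KRT19 and TEK moved with the replication genes, and their part in the differences was not tested.

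Of the 46 genes, 32 fell in RASv12 cells (69.6%), 2 rose and 12 did not pass the test. Over all genes tested, 15.6% were called lower and 14% were called higher. The median difference of the 46 genes was -1.07, against 0.02 over all genes, and 25 genes fell by at least 2-fold on the log2(intensity + 16) scale (5.09% of all genes). RASv12 and control samples did not overlap in intensity for 33 genes that lay lower and 4 that lay higher in RASv12 cells, where 22% and 19.7% of all genes did the same. In these bulk samples, fewer cells holding a transcript and less of it per cell cannot be told apart. With 12 genes that were at background in all 3 RASv12 samples set to their bound, and CLSPN, at background in all 6 samples, left out, the median was -1.06. Those bounds come from log2 intensity without the added 16 or normalization. This median therefore mixes scales and does not show how dim genes weigh on it, as for the other medians given in that way. Of the 32 falls, 28 were called under each of the 14 alternative settings other than a replicate block in which they were fitted, and the other 4 were ORC1, GINS4, CDC7 and POLE. The count called higher, 2 here (RFC5 and RPA2), ran from 0 to 5 under all 15 alternatives. RFC5 was called lower on its other probe sets, and RPA2 lost its call in some fits that left out a sample. Of all calls 52.7% were lower, against 29.8% with arrays scaled to their hybridization controls, where the median of all genes moved to 0.18 and that of the 46 genes to -0.91. With a pseudocount of 64 the median of the 46 genes was -0.60.

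**Figure D2:**
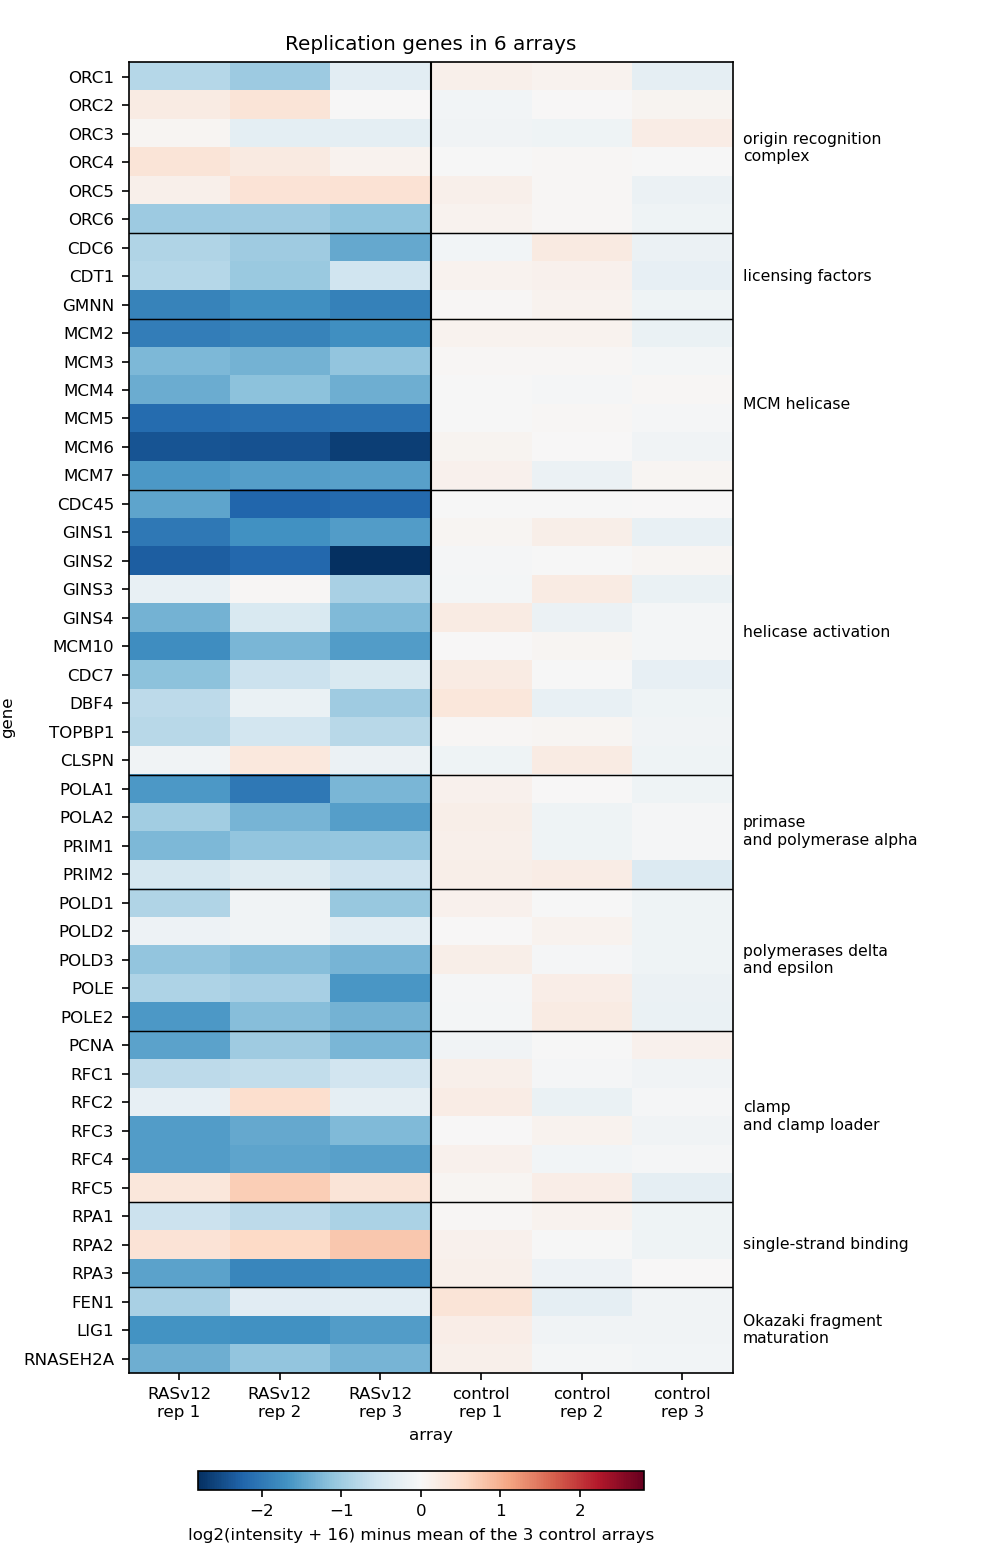
Each row is a replication gene and each column an array, RASv12 on the left and control on the right, with genes grouped by part of the machinery. Colour gives log2(intensity + 16), before normalization between arrays, minus the mean of the 3 control arrays (blue lower, red higher). All 6 MCM rows are blue in all 3 RASv12 columns, while ORC2, ORC4, ORC5, RFC5 and RPA2 are pale red in at least 2 of them.

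The subunits of the MCM helicase, the ring that unwinds DNA, fell as a whole: 6 of 6 were called lower, with differences from -2.50 to -1.21 and a median of -1.67. MCM6 had intensities of 44.03, 42.8 and 35.5 in RASv12 samples, against 321, 308 and 284 in control samples. Its difference was -2.50 ± 0.13 (SE, adjusted p = 2.5e-05), the most negative of the 46 genes. MCM5 read 37.8, 39.8 and 40.1 in RASv12 samples, against 224, 230.2 and 218 in control samples, and fell by 2.10 on the log2 scale (SE 0.091, adjusted p = 1.1e-05). No RASv12 sample of either gene came near a control sample. MCM2 intensities were 52.1, 54.7 and 63.4 in RASv12 samples, against 261, 261 and 213 in control samples, a difference of -1.81 ± 0.11 (SE, adjusted p = 4.2e-05). MCM7 gave 78.1, 82.2 and 83.2 in RASv12 samples, against 295, 238 and 279 in control samples, with -1.53 ± 0.11 (SE, adjusted p = 1.0e-04). For MCM4 the values were 40.4, 50.2 and 41.5 in RASv12 samples, against 131, 128 and 135 in control samples, and the difference was -1.26 ± 0.11 (SE, adjusted p = 2.4e-04). These 3 subunits also had every RASv12 sample far under every control sample. MCM3, whose fall was the smallest of the ring, still separated the groups, with 93.8, 89.8 and 107 in RASv12 samples, against 252, 253 and 238 in control samples, and a difference of -1.21 ± 0.094 (SE, adjusted p = 1.3e-04). Mean intensity was 7.46-fold lower in RASv12 cells for MCM6 and 2.56-fold lower for MCM3, and whether subunits differed from each other was not tested. Every MCM subunit stayed above background in all 3 RASv12 samples on its brightest probe set. On the second probe set of MCM5, RASv12 samples read 3.66, 6.10 and 1.86, all at background, and control samples read 98.2, 116 and 96.4. Both probe sets of MCM7 were called lower, and 3 of the 4 of MCM4.

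The origin recognition complex, which marks origins through the cell cycle, differed among its subunits: 2 of 6 were called lower, none higher, and the median difference was 0.06 (0.09 with ORC1 set to the fold given below, 0.27 with scaling to hybridization controls, 0.26 without the dimmest 50% of probe sets and -0.02 without RASv12 replicate 1). ORC6, its smallest subunit, had 51.3, 51.96 and 46.6 in RASv12 samples, against 129, 122 and 108 in control samples, with a difference of -1.0 ± 0.12 (SE, adjusted p = 8.9e-04). ORC1, the subunit that in human cells is degraded in S phase, was dim, at 8.44, 5.26 and 18.96 in RASv12 samples, against 31.4, 29.8 and 20.1 in control samples. All 3 RASv12 samples and 1 control sample of ORC1 were at background, so that it was at least 1.06-fold lower (adjusted p = 0.024), and the call ended under 6 of those 14 alternatives, with adjusted p from 0.053 to 0.10 (leaving out RASv12 replicate 1 or 2 or control replicate 1 or 2, a pseudocount of 1, and scaling to hybridization controls). The core subunits did not pass. ORC5, an ATP-binding core subunit, read 157, 189 and 194 in RASv12 samples, against 157, 146 and 124 in control samples (0.32 ± 0.13 SE, adjusted p = 0.11), where the lowest RASv12 sample lay just above the highest control sample. Its second probe set was called higher, at 0.50 (adjusted p = 0.046 over all probe sets), as were 11.3% of all probe sets. ORC4, another ATP-binding subunit, read 149, 137 and 123 in RASv12 samples, against 112, 115 and 111 in control samples (0.26 ± 0.10 SE, adjusted p = 0.10), with its groups apart. ORC2 read 64.9, 73.2 and 53.2 in RASv12 samples, against 49.1, 53.8 and 56.4 in control samples (0.26 ± 0.14 SE, adjusted p = 0.21). ORC3 read 137, 107 and 106 in RASv12 samples, against 123, 120.0 and 156 in control samples (-0.14 ± 0.15 SE, adjusted p = 0.53). For ORC2 and ORC3 the groups overlapped, although ORC2 was called higher without RASv12 replicate 3 (adjusted p = 0.041). With arrays scaled to their hybridization controls, ORC2, ORC4 and ORC5 were called higher, at 0.44, 0.50 and 0.58.

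**Figure D3:**
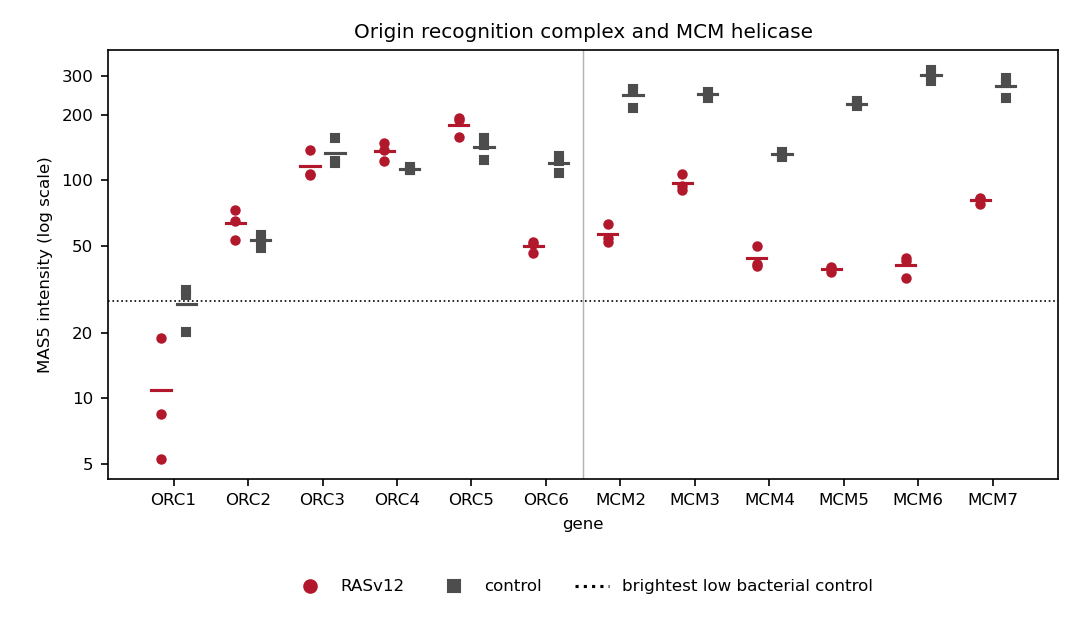
Intensity (log axis) of the 6 subunits of the origin recognition complex and the 6 of the MCM helicase, with a point for each sample, RASv12 in red left of control in grey, and bars at group means. The dotted line is the brightest low bacterial control (27.98). The groups are far apart for all 6 MCM genes and ORC6, while ORC2 and ORC3 overlap, ORC5 almost does, and ORC1 lies near or under the line.

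All 3 licensing factors fell, the inhibitor as well as the loaders, with a median of -1.04 (-0.55 with a pseudocount of 64). GMNN, geminin, which binds CDT1 and stops relicensing, had 43.2, 49.9 and 42.8 in RASv12 samples, against 206, 217 and 185 in control samples, with a difference of -1.80 ± 0.11 (SE, adjusted p = 5.0e-05). Its partner CDT1, which brings MCM rings to origins, read 9.87, 5.97 and 14.4 in RASv12 samples, against 32.2, 32.8 and 22.5 in control samples. All RASv12 samples of CDT1 and 1 control sample were at background, so it was at least 1.10-fold lower (adjusted p = 0.0068). CDC6, the ATPase that loads the ring with the origin recognition complex, read 30.1, 25.2 and 14.6 in RASv12 samples, against 61.8, 81.8 and 57.1 in control samples, a difference of -1.04 ± 0.22 (SE, adjusted p = 0.012), and its second probe set was also lower (adjusted p = 8.9e-04 over all probe sets, where 13% of probe sets were called lower). None of the 3 genes had overlapping groups. With the origin recognition complex, the licensing group had 5 of 9 genes lower.

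The factors that activate the helicase were lower for 7 of 10 genes, with a median of -0.83 (-0.69 with 5 genes at their bound and CLSPN left out). That median was -1.48 without the dimmest 50% of probe sets, -1.37 with a pseudocount of 1 and -0.42 with a pseudocount of 64. GINS2, of the GINS complex that completes the active helicase, had 14.6, 17.3 and 5.56 in RASv12 samples, against 133.07, 134 and 141 in control samples. RASv12 samples were all at background, and GINS2 was at least 4.86-fold lower (adjusted p = 1.4e-04). GINS1 read 10.7, 17.3 and 20.3 in RASv12 samples, against 96.1, 104 and 76.5 in control samples, and was at least 3.27-fold lower (adjusted p = 1.1e-04). CDC45, the helicase cofactor, stood at 13.2, 1.54 and 1.91 in RASv12 samples, against 65.1, 64.4 and 66.2 in control samples, at least 2.33-fold lower (adjusted p = 0.0011). These genes were clearly above background in control cells and not in RASv12 cells. MCM10, which helps start unwinding, read 6.77, 15.1 and 9.76 in RASv12 samples, against 60.3, 62.5 and 56.4 in control samples (at least 2.13-fold lower, adjusted p = 1.7e-04). GINS4 read 5.87, 24.9 and 7.12 in RASv12 samples, against 47.8, 32.9 and 36.4 in control samples (at least 1.38-fold lower, adjusted p = 0.023), a call lost when any sample but RASv12 replicate 2 was left out and with a pseudocount of 1 (adjusted p from 0.050 to 0.077). GINS3, the remaining subunit of the complex, did not pass on either probe set, with 27.7, 35.9 and 11.01 in RASv12 samples, against 32.6, 43.2 and 28.6 in control samples on the brighter. Of the 4 GINS genes, then, 3 were at background in every RASv12 sample. The kinase CDC7, which phosphorylates MCM proteins, had 14.8, 28.99 and 35.1 in RASv12 samples, against 64.2, 52.1 and 42.5 in control samples, a difference of -0.69 ± 0.18 (SE, adjusted p = 0.025). Among those 14 alternatives, it lost its call without control replicate 1 or 2 (adjusted p = 0.078 and 0.071), with a pseudocount of 1 (0.051) and with scaling to hybridization controls (0.12). Its activator DBF4 read 36.4, 60.3 and 27.6 in RASv12 samples, against 93.5, 59.6 and 64.4 in control samples, and did not pass (-0.60 ± 0.26 SE, adjusted p = 0.14), and 1 RASv12 sample lay above the lowest control sample. With RASv12 replicate 2 left out DBF4 was called, at -0.84 with adjusted p = 0.046. TOPBP1, a scaffold that helps bring CDC45 to origins, read 50.9, 64.7 and 50.7 in RASv12 samples, against 102, 102 and 91.4 in control samples (-0.63 ± 0.12 SE, adjusted p = 0.0084). CLSPN, the checkpoint mediator claspin, was at background in all 6 samples, between 1.99 and 8.53, so no fold is given.

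Among polymerase subunits 6 of 9 were lower and none higher. Primase and polymerase alpha had 3 of 4 lower (median -1.19, or -0.68 with a pseudocount of 64). POLA1, the catalytic subunit of polymerase alpha, read 8.95, 2.96 and 15.2 in RASv12 samples, against 66.5, 61.3 and 54.00 in control samples, at background in all RASv12 samples and at least 2.16-fold lower (adjusted p = 6.6e-04). PRIM1, the catalytic primase subunit, had 20.5, 24.7 and 25.5 in RASv12 samples, against 81.6, 64.4 and 70.4 in control samples, and was at least 2.57-fold lower (adjusted p = 3.4e-04). POLA2, the accessory subunit of polymerase alpha, stayed above background with 50.04, 36.5 and 28.1 in RASv12 samples, against 129, 102 and 109.9 in control samples (-1.26 ± 0.21 SE, adjusted p = 0.0041). In all 3 genes the groups were apart. PRIM2, the large primase subunit, read 21.5, 24.7 and 19.3 in RASv12 samples, against 42.96, 44.7 and 24.4 in control samples, and did not pass (adjusted p = 0.10), though it was called without control replicate 3, its dimmest control (-0.63, adjusted p = 0.030). Probe sets that the annotation shares between PRIM2 and its pseudogene PRIM2BP were not used.

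Polymerases delta and epsilon had 3 of 5 lower (median -1.09, or -0.54 with a pseudocount of 64). POLE2, the second subunit of the leading-strand polymerase epsilon, had 17.4, 28.9 and 24.5 in RASv12 samples, against 82.5, 104 and 73.4 in control samples (-1.34 ± 0.15 SE, adjusted p = 6.6e-04). Its catalytic partner POLE read 24.8, 22.7 and 7.898 in RASv12 samples, against 56.6, 68.9 and 50.4 in control samples, at least 2.08-fold lower with adjusted p = 0.016, and lost its call without control replicate 2 (adjusted p = 0.060) and with a pseudocount of 1 (0.062). POLD3, a subunit of the lagging-strand polymerase delta, had 29.2, 26.2 and 23.3 in RASv12 samples, against 92.5, 78.1 and 73.4 in control samples (-1.17 ± 0.15 SE, adjusted p = 0.0012). POLD2 and POLD1, also of polymerase delta, did not pass. POLD2, a regulatory subunit, read 201, 210.3 and 179 in RASv12 samples, against 227, 244 and 206 in control samples (-0.19 ± 0.11 SE, adjusted p = 0.25), so that the groups overlapped. POLD1, the catalytic subunit, read 14.5, 34.7 and 9.94 in RASv12 samples, against 43.4, 38.2 and 34.3 in control samples (-0.63 ± 0.25 SE, adjusted p = 0.11), with RASv12 replicate 2 inside the range of control samples, and it was called without that sample (-0.92, adjusted p = 0.011).

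The clamp and its loader had 4 of 6 genes lower, 1 higher and a median of -0.93. PCNA, the clamp that holds polymerases on DNA, had 132.98, 194 and 157 in RASv12 samples, against 377, 402 and 439.9 in control samples, a difference of -1.27 ± 0.14 (SE, adjusted p = 7.8e-04). RFC4 read 45.2, 48.4 and 47.03 in RASv12 samples, against 179, 155 and 161 in control samples (-1.49 ± 0.10 SE, adjusted p = 7.4e-05) and RFC3 read 32.7, 37.6 and 45.01 in RASv12 samples, against 128, 138 and 119 in control samples (-1.37 ± 0.097 SE, adjusted p = 9.0e-05), both small subunits of the loader. For these 3 genes every RASv12 sample lay well under every control sample. RFC1, the large subunit, read 51.8, 54.9 and 62.03 in RASv12 samples, against 109, 94.3 and 89.8 in control samples (-0.59 ± 0.10 SE, adjusted p = 0.0053) on its brightest probe set, and its second did not pass (adjusted p = 0.067 over all probe sets).

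Probe sets disagreed for the other small subunits. RFC5 was called higher on its brightest probe set, with 89.9, 120.0 and 93.3 in RASv12 samples, against 71.2, 80.8 and 55.4 in control samples, a difference of 0.53 ± 0.15 (SE, adjusted p = 0.040). Its other probe sets were called lower, at -0.80 (adjusted p = 0.013) and -0.64 (adjusted p = 0.025), with no overlap between groups. They read 22.2, 34.5 and 30.6 in RASv12 samples, against 62.4, 82.3 and 51.7 in control samples, and 18.3, 23.3 and 17.3 in RASv12 samples, against 31.7, 45.8 and 46.6 in control samples. The mean of the 3 gave -0.30 with adjusted p = 0.13, so the direction of RFC5 turned with the choice of probe set. The rise was also lost under 8 others of those 14 alternatives (adjusted p from 0.055 to 0.12), including the removal of any sample but control replicate 2. In RefSeq the RFC5 gene overlaps its neighbour WSB2, which has a probe set of its own. It read 595, 623 and 670.0 in RASv12 samples, against 531, 485 and 477 in control samples, with the groups apart, and did not pass (0.31 ± 0.11 SE, adjusted p = 0.071). WSB2 was looked at after the values of RFC5 were seen, and which transcript the brightest RFC5 probe set reads was not tested. RFC2 read 69.7, 123 and 67.6 in RASv12 samples, against 99.5, 72.3 and 82.5 in control samples on its brightest probe set, with overlapping groups (0.05 ± 0.22 SE, adjusted p = 0.89), while its second probe set was called lower (-0.43, adjusted p = 0.041), with 48.7, 49.1 and 42.5 in RASv12 samples and 73.5, 66.0 and 76.4 in control samples. Over all 13 replication genes with several probe sets, 5 had every probe set called lower (CDC6, MCM5, MCM7, RFC3 and RPA1) and 3 had none called (ORC4, GINS3 and FEN1). In 3 others (MCM4, RFC1 and RFC2) some but not all were lower, and ORC5 and RFC5 had 1 called higher.

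**Figure D4:**
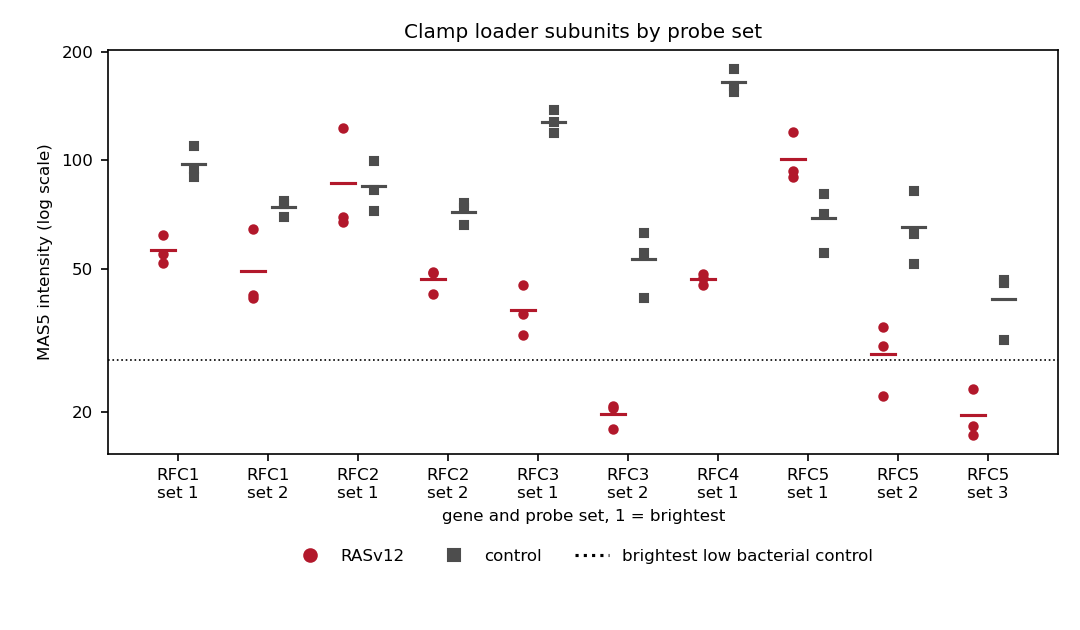
Intensity (log axis) on each probe set of the 5 clamp loader genes, numbered from the brightest, leaving out 1 RFC1 probe set at background in all 6 samples. Points are samples, RASv12 in red left of control in grey, bars are group means and the dotted line is the brightest low bacterial control. RFC5 lies higher in RASv12 cells on probe set 1 and lower on probe sets 2 and 3.

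Replication protein A, the trimer that coats single-stranded DNA, had subunits called in both directions and a median of -0.74 (-0.46 with scaling to hybridization controls). RPA3, the smallest, read 76.01, 58.01 and 59.7 in RASv12 samples, against 271, 219.6 and 246 in control samples (-1.68 ± 0.14 SE, adjusted p = 2.0e-04), and RPA1, the largest, read 148, 134 and 119 in RASv12 samples, against 239, 248 and 212 in control samples (-0.74 ± 0.12 SE, adjusted p = 0.0033), with its second probe set also lower at -1.03. RPA2, the subunit phosphorylated in the cycle and after damage, was higher, with 234, 269 and 312 in RASv12 samples, against 195, 175 and 162 in control samples (0.56 ± 0.14 SE, adjusted p = 0.021). All 3 RASv12 samples of RPA2 were above all control samples. Among those 14 alternatives, that call was lost without RASv12 replicate 2, control replicate 2 or control replicate 3 (adjusted p = 0.060, 0.067 and 0.077). A single probe set represented RPA2.

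Of the 3 genes that finish Okazaki fragments, the short pieces of the lagging strand, 2 fell. LIG1, the ligase that seals them, had 18.5, 17.96 and 21.3 in RASv12 samples, against 109.6, 87.04 and 86.8 in control samples, at background in all RASv12 samples and at least 3.36-fold lower (adjusted p = 1.0e-04). RNASEH2A, the catalytic subunit of ribonuclease H2, which cuts RNA paired with DNA, read 69.04, 85.4 and 73.1 in RASv12 samples, against 224, 194 and 193 in control samples (-1.22 ± 0.12 SE, adjusted p = 3.2e-04). FEN1, the flap endonuclease, read 68.9, 112 and 115 in RASv12 samples, against 189.5, 118 and 132 in control samples (-0.46 ± 0.22 SE, adjusted p = 0.16), so that the groups were just apart without passing the test. With the mean of its 2 probe sets it was called, at -0.44 with adjusted p = 0.020.

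**Figure D5:**
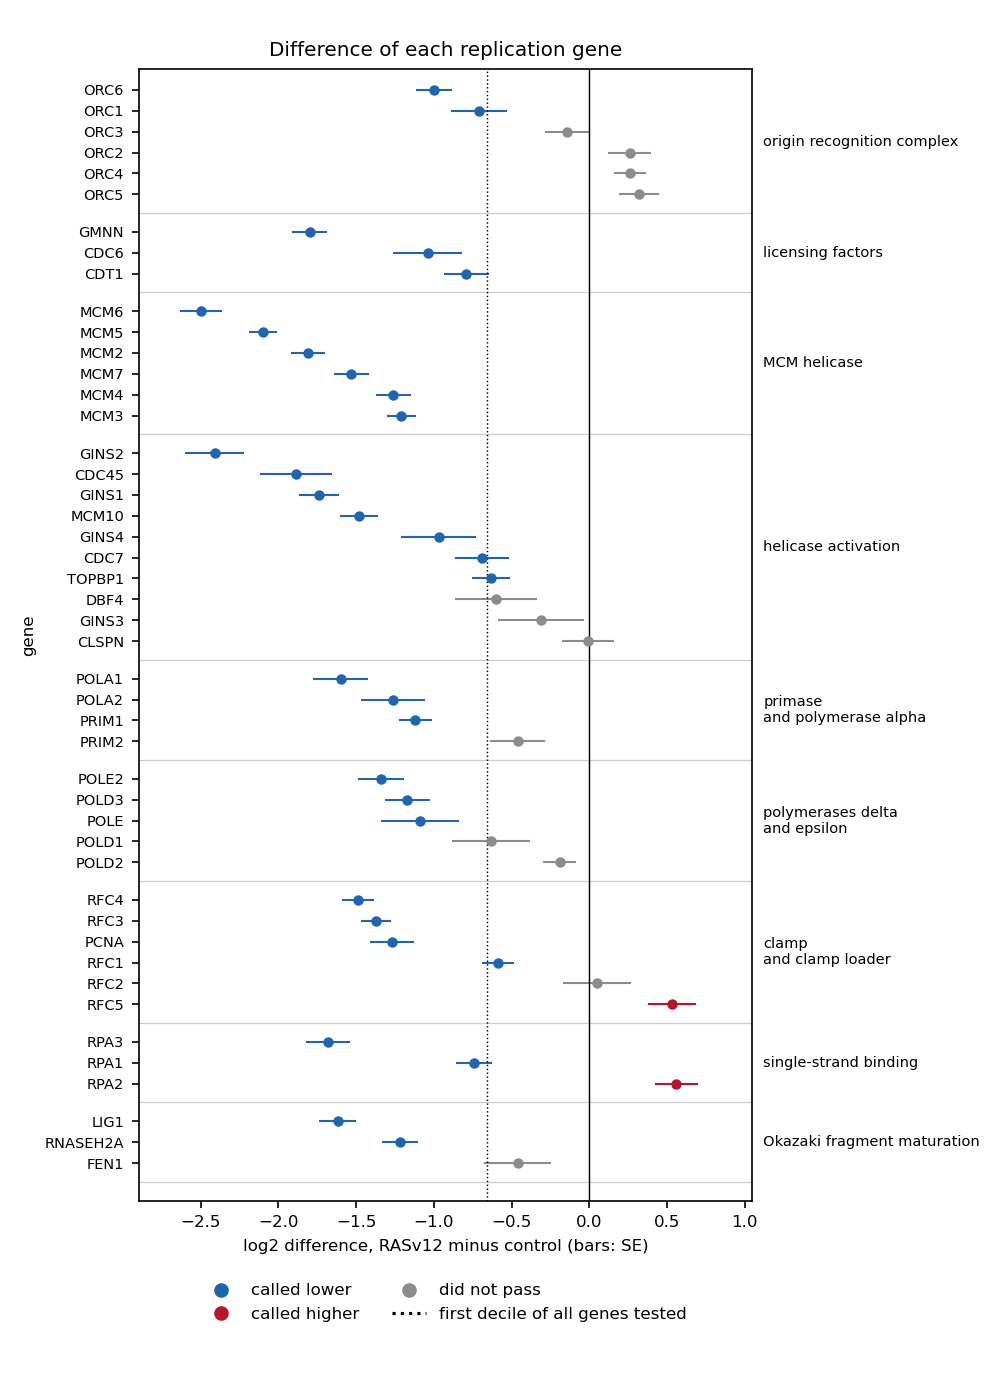
Log2 difference (RASv12 minus control, with SE bars) of each of the 46 genes, sorted within each part of the machinery. Blue was called lower, red higher and grey did not pass, and the dotted line at -0.66 is the first decile of all genes. The 6 MCM genes lie left of that line, and 4 of the 6 genes of the origin recognition complex lie near 0.

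Set side by side, the share of genes called lower was 6 of 6 for the MCM helicase, 5 of 9 for origin licensing, 6 of 9 for the polymerases and 3 of 5 for replication factor C, against 15.6% of all genes. Origin licensing joins 2 of 6 genes of the origin recognition complex and 3 of 3 licensing factors. These counts use the brightest probe set. Dimmer probe sets of RFC2 and RFC5 were called lower, and dimmer ones of RFC1 did not pass. The median over the genes of a part, relative to the mean of the control arrays, was -1.69, -1.67 and -1.65 in RASv12 replicates 1 to 3 for the MCM helicase and 0.11, 0.03 and -0.14 for the origin recognition complex. For the clamp and its loader these medians were -1.02, -0.81 and -0.92. Differences between parts were not tested, because genes of a part are not replicates.

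Beyond the 46 genes, 39 others with roles in or beside replication were listed, of which 32 were measured. Of these 14 fell (43.8%), 1 rose and 17 missed the threshold, where 15.6% of all genes were called lower and 14% higher. The median difference was -0.40 (-0.43 with 4 genes at their bound and 3 at background in all 6 samples left out), against 0.02 over all genes. The 4 falls with the largest moderated t were those of DUT, PCLAF, RRM1 and RRM2. PCLAF, which binds PCNA, averaged 74.9 ± 19.4 in RASv12 cells and 865 ± 99.4 in control cells (SD, n = 3 each), a difference of -3.26 ± 0.17 (SE, adjusted p = 2.2e-05). DUT, the dUTPase, averaged 128 ± 4.199 in RASv12 cells and 562 ± 42.2 in control cells (-2.0 ± 0.10 SE, adjusted p = 2.0e-05). The ribonucleotide reductase subunits RRM2 and RRM1 averaged 164 ± 42.8 in RASv12 cells and 908 ± 35.4 in control cells (-2.40 ± 0.18 SE, adjusted p = 1.1e-04), and 161 ± 9.78 in RASv12 cells and 538 ± 65.1 in control cells (-1.64 ± 0.12 SE, adjusted p = 1.0e-04). CCNE1, cyclin E1, which drives entry into S phase, was the gene that rose, with 103, 94.9 and 75.1 in RASv12 samples, against 65.6, 42.9 and 54.2 in control samples, a difference of 0.67 ± 0.17 (SE, adjusted p = 0.022). Leaving out control replicate 2, control replicate 3 or RASv12 replicate 2 each ended that call.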

How the data were processed

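Gene expression was measured on 6 Affymetrix human arrays, 1 per sample. The authors deposited linear signal intensity values per probe set made with MAS5, per the submitters' processing notes, with the version and scaling target not given in the sources used here. Per the labels' protocols RNA was amplified in 2 rounds, which can compress or distort differences. No column was left unused.

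Of 22283 probe sets 68 were controls, and 22215 were normalized together. Platform annotation updated through RefSeq (GRCh38.p14) gave 1 symbol to 19065, several to 1043 and none to 2107, and unnamed ones were not reported. Each of 11960 genes was represented by its brightest probe set (mean of the 6 arrays). Values were transformed as log2(value + 16), quantile normalized and tested with limma 3.58.1 (R 4.3.3; lmFit, eBayes), tested on simulated data. P-values of genes were adjusted over all genes, those of further probe sets over all probe sets. A gene with all 3 samples of a group at or under 27.98 is given as "at least" a fold. That fold comes from mean log2 intensities, without the added 16 or normalization, with dim values raised to that level. Where a control sample was also at background (ORC1, CDT1 and PRIM2), the fold is not a strict lower bound. The number of arrays limits precision.

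Genes and lists were chosen with earlier results of these data known. Values in every sample are given for at least the 2 genes of each part with the largest moderated t, those called higher and the brightest that did not pass. Of other replication genes, the 4 falls with the largest moderated t and any rise are named. Promoters were searched with Python 3.11.15. The motifs, and the neighbour WSB2, were chosen after values were seen. Of 39 other replication genes, 7 were not analysed here. Alternatives covered the pseudocount, normalization, dim probe sets, probe set choice, the replicate block and leaving out each sample.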

Additional observations from a re-analysis of the deposited data

How the results depend on the processing

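The count of genes called lower, 32 of 46, ran from 28 to 33 under the 15 alternatives, and the median of the 46 genes stayed negative in all of them. That median was -1.44 with a pseudocount of 1, -0.60 with 64, -0.91 with scaling to hybridization controls and -1.21 without the dimmest 50% of probe sets (39 genes left), and leaving out a sample gave -1.15 to -0.89. Hybridization controls were dimmer on RASv12 arrays (mean log2 intensity 8.26, 8.26 and 8.18) than on control arrays (8.53, 8.52 and 8.55). Scaling to them moved the median of all genes to 0.18 and the calls to 1157 lower and 2721 higher, against 1861 lower and 1670 higher after quantile normalization. Of the 46 genes it left 30 lower and made 5 higher, and of the other 32 replication genes 10 were lower and 3 higher. The 2 genes called higher became 1 with a pseudocount of 1, values as deposited, median centring or the mean of probe sets, and 0 to 2 without a sample. The call of RFC5, the 1 gene of the clamp and its loader that was higher, was lost in those settings (0 left), and with the mean of its probe sets it turned to -0.30. The count of that part was also 0 to 1 without a sample, as was that of single-strand binding. In the origin recognition complex, 1 gene rather than 2 was lower with a pseudocount of 1, with scaling to hybridization controls (where 3 were higher) and without the dimmest 50%, and 1 to 2 were lower and 0 to 1 higher without a sample. Among other replication genes 2 were higher with a pseudocount of 64 or without the dimmest 50%, and 0 to 2 without a sample. Samples with the same replicate number did not deviate together (correlations of deviations -0.226, -0.028 and -0.070), and 0 of 6 samples correlated best with their own number. With the replicate block 31 genes were lower and 1 higher, with 1 lower in the origin recognition complex and 0 higher in single-strand binding, and calls of CDC7, ORC1 and RPA2 were lost (adjusted p = 0.074, 0.067 and 0.068) while PRIM2 gained one (-0.46, adjusted p = 0.046). In 13 of the 46 genes all RASv12 samples were at background, which limits their folds to bounds. The causes of these changes were not tested.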
